A study of Rattus norvegicus with 20 samples.

Results

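Inflammatory cytokine and adhesion transcripts were followed as a set of 7 genes in rat bone marrow mesenchymal stromal cells (MSCs), out of 30560 genes in the count table. The members were defined by rat Ensembl identifier as genes of one function, with earlier results of these data known, and no measured value enters the definition: the cytokines Il6 (ENSRNOG00000010278) and Il1b (ENSRNOG00000004649), the chemokines Ccl2 (ENSRNOG00000007159) and Cxcl1 (ENSRNOG00000002802), the enzyme Ptgs2 (ENSRNOG00000002525), and the adhesion molecules Icam1 (ENSRNOG00000020679) and Vcam1 (ENSRNOG00000014333). The count table gives identifiers without symbols, and the symbols come from the definition of the set and could not be checked against a rat annotation here. For the same reason the MSC label could not be checked against marker genes. All 7 members passed the filter on low counts, which left 14034 genes, and Il1b and Vcam1 passed it only through the 1-week libraries.

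These genes are textbook targets of NF-κB, a transcription factor that enters the nucleus when cells sense cytokines or microbial products. Interleukin 6 and interleukin 1β are secreted signals, Ccl2 and Cxcl1 proteins attract monocytes and neutrophils, cyclooxygenase-2 (the Ptgs2 product) starts prostaglandin synthesis, and ICAM-1 and VCAM-1 are surface proteins to which leukocytes bind. MSCs are known to release interleukin 6, Ccl2 and prostaglandin E2, through which they act on immune cells.

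MSCs of single female Wistar rats were grown on gelatin-coated silicone, either soft (2 kPa) or stiff (100 kPa), with a passage each week, in the same serum-containing medium. Cells kept on one surface were harvested after 1 week (1w2 and 1w100), 3 weeks (3w2 and 3w100) or 5 weeks (5w2 and 5w100). Others spent 3 weeks on one surface and 2 weeks on the other (3w2→2w100, soft-primed, and 3w100→2w2, stiff-primed). The 1-week and 3-week groups had 3 libraries each and the 5-week groups, of which there were 4, had 2 each, 20 libraries in 8 groups, with no drug or added cytokine named in any of them.

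One limit touches Icam1 directly. After an expansion passage the cells were enriched with magnetic beads against CD90 and CD54, a step meant to remove blood cells, and CD54 is ICAM-1 itself. Icam1 levels after that step are those of cells selected for the protein, and the part of that selection in the results below was not tested. The sources used here do not spell out whether the enrichment came before or after the 1-week harvest, so its part in any difference between week 1 and later weeks was not tested either.

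Library totals ran from 16127907 to 24139128 counts. Levels are given as CPM, counts relative to the TMM-scaled library size, which compare libraries for one gene and not one gene with another, since transcript lengths were not used. Log2 fold changes come from edgeR's quasi-likelihood test fitted on all 20 libraries, with p-values adjusted by Benjamini-Hochberg over the 14034 genes, and a gene was called at an adjusted p below 0.05. In bulk RNA, fewer cells of a type and less RNA per cell cannot be told apart.

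Promoter sequence was available from RefSeq (GRCr8) for 6 of the 7 members, matched by symbol, with no entry for Ccl2. The 250 bases before each annotated start were searched on both strands for the 10-base NF-κB consensus GGGRNNYYCC (R is A or G, Y is C or T, N is any base). Also searched were the AP-1 motif TGANTCA, the cyclic AMP element TGACGTCA and the TATA motif TATAAA. A site that departs from its motif at any base was not counted, so a missing match does not show that a variant site is missing. The NF-κB consensus was matched in Il6, Cxcl1 and Vcam1 and not in Ptgs2, Il1b or Icam1, while 6.33% of 33465 promoters held a match. Below, the 110 bases before the start are shown 5′ to 3′ for the 3 promoters with that match and for Ptgs2. The transcripts of the 3 behaved differently from each other. From week 3 on, Ptgs2 means by first surface ran opposite to those of Il6, with neither gene called in the reported fit. Capitals mark NF-κB and TATAAA matches.
Il6, chr4:5894576-5894685 (minus strand): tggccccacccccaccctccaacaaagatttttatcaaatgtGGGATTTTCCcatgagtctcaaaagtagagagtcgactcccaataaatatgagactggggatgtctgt
Cxcl1, chr14:17479322-17479431 (minus strand): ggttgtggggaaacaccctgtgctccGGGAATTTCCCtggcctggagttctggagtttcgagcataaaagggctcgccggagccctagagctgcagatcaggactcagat
Vcam1, chr2:206742784-206742893 (minus strand): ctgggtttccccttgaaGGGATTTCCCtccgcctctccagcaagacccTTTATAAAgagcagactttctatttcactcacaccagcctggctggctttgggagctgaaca
Ptgs2, chr13:64713953-64714062 (plus strand): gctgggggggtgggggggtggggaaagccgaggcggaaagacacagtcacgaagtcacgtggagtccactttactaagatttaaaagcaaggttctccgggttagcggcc

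The match lay at bases -68 to -59 from the start in Il6, -84 to -74 in Cxcl1 (overlapping matches on both strands) and -93 to -84 in Vcam1. TATAAA, present in 12.9% of promoters, was found in Il1b, Icam1 and Vcam1, on both strands with overlap in Vcam1. For Icam1 only the 93 bases from -250 to -158 lie before the annotated gene, and its TATAAA, at -53 to -48, lies within it. Il6 also held TGACGTCA at -162 to -155, which 1.59% of promoters held, and TGANTCA (6.34% of promoters) was in none of the 6. These matches describe letters in a window and do not show that a factor binds there.

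Across the 8 groups the members fell into 3 patterns. Il1b and Vcam1 were seen at low levels at 1 week and nearly or wholly lost afterwards. Mean Ccl2 was lower at week 3 than at week 1 on both surfaces, a difference that edgeR called on stiff and not on soft. Il6 and Icam1 had higher mean levels in soft-primed than in stiff-primed cells from week 3 on, whichever surface the cells sat on at week 5, and Ptgs2 showed the opposite order of means. Cxcl1 was low throughout, with overlapping groups.

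**Figure D1:**
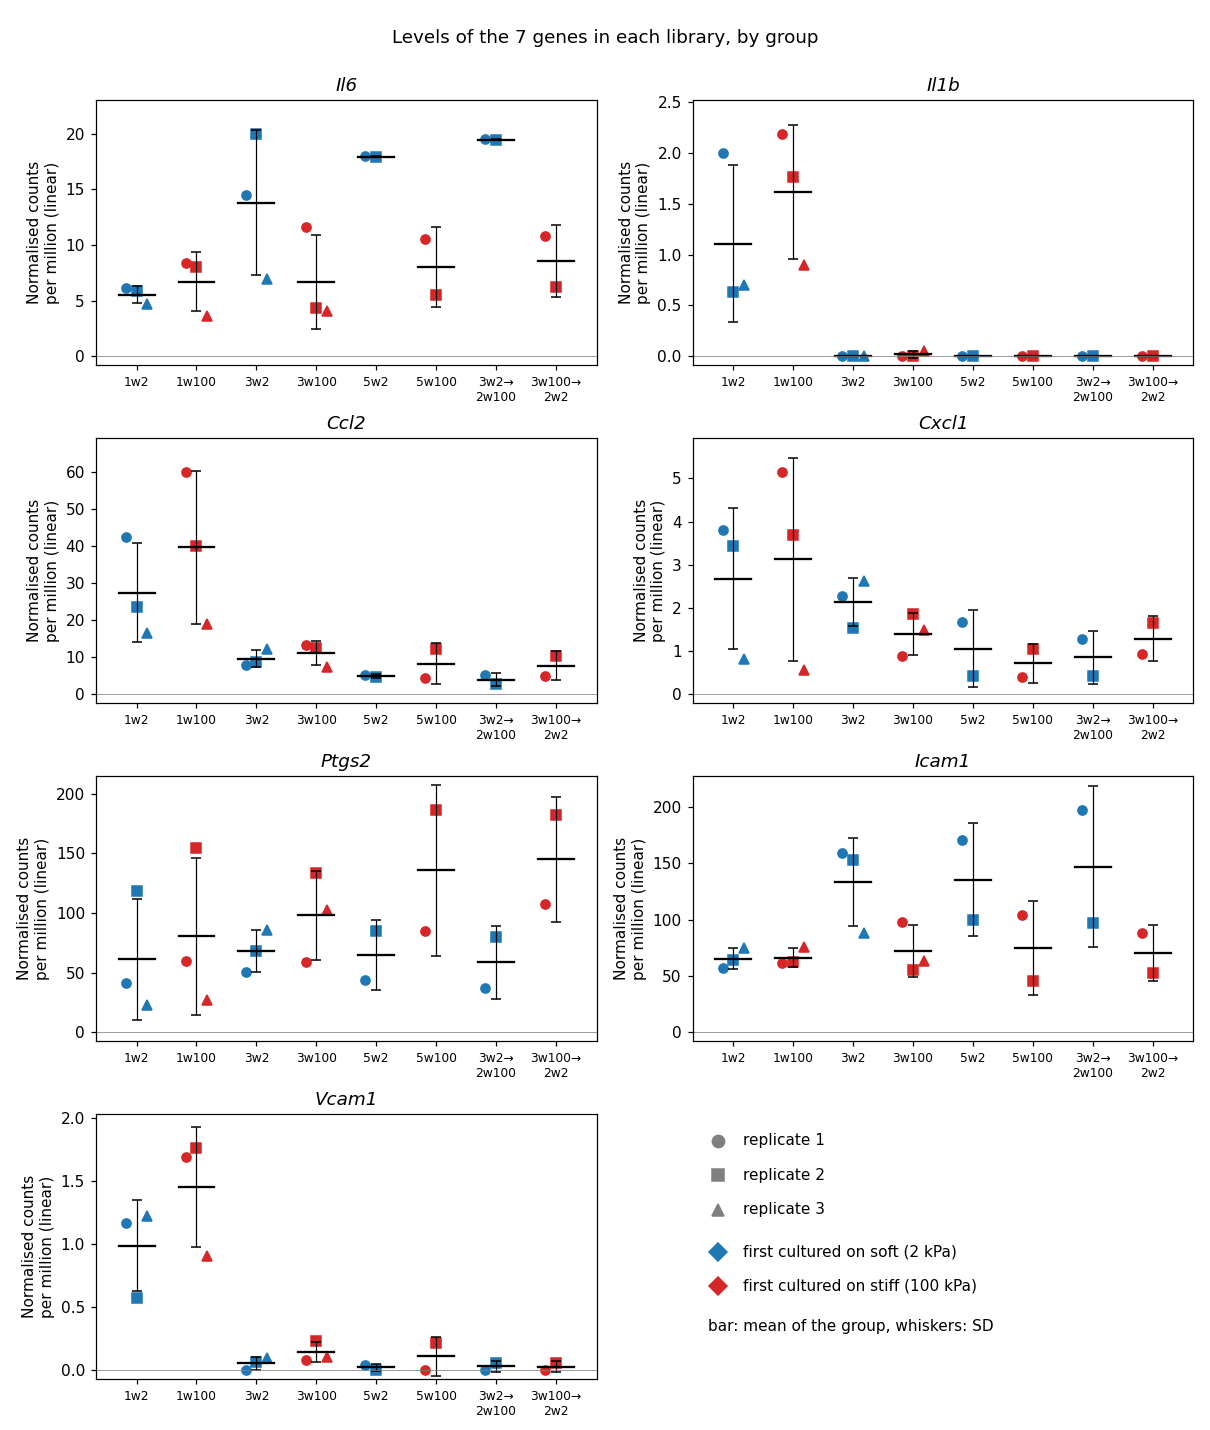
Levels of the 7 genes (normalised CPM, linear axis, a separate scale for each gene) in the 20 libraries, by group, with symbols for replicate numbers, colour for the surface of the first weeks, bars for means and whiskers for SD. Il1b and Vcam1 are near 0 after 1 week, and the 4 soft-primed libraries at 5 weeks carry Il6 at 17.9 to 19.5 CPM against 5.47 to 10.8 CPM in the 4 stiff-primed ones. Kept and switched libraries of the same number and priming surface are not independent.

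The calls set the frame for the values that follow. Where libraries are said below not to overlap, the share of all genes without overlap was not worked out. Between 3 weeks and 1 week, edgeR called 2 of 7 members on soft, where 8.03% of all genes tested were called, and 3 of 7 on stiff, where the share was 8.41%, each of them lower at 3 weeks. Il1b and Vcam1 make up both calls on soft and 2 of the 3 on stiff, and since they passed the filter only through their 1-week level, these counts are not read against the background. Of the 5 members present at every time, 0 were called on soft and 1, Ccl2, on stiff. DESeq2 called 5 of 7 on soft, where it called 11.2% of all genes, with Il6 and Icam1 higher at 3 weeks and Ccl2, Il1b and Vcam1 lower. The median log2 change was -0.32 on soft and -1.16 on stiff over the 7 members, and 0.15 and 0.00 over the 5 without Il1b and Vcam1, beside 0.00 over all genes tested on both surfaces.

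No member was called by edgeR in the comparison of stiff with soft surfaces at 1 week (0% of all genes called), 3 weeks (0%) or 5 weeks (0.264%). At an unadjusted edgeR p below 0.05 these comparisons had 0, 2 and 1 members, beside 0.385%, 6.15% and 15.4% of all genes. DESeq2 called 0 members in each, beside 0%, 0.0784% and 4.27% of all genes. The 5-week libraries compared by priming surface gave 0 called members by edgeR (9.75% of all genes called). At an unadjusted edgeR p below 0.05 there were 3 (25.8% of all genes), and DESeq2 called 2 (14.2% of all genes). Compared by current surface, the 5-week libraries gave 0 by edgeR (0% of all genes), 0 unadjusted (0.812%) and 0 by DESeq2 (0%). With a block for each pair of 5-week libraries of 1 priming surface and number, edgeR called 0 members (0.145% of the genes it tested).

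The remaining comparisons called no member with edgeR or DESeq2. Of all genes, DESeq2 called 0.798% on soft and 0.121% on stiff for week 5 against week 3. It called 3.2% in each comparison of moved cells with kept cells. For the change of the surface effect it called 0% at week 3 and 0.271% at week 5, each against week 1. The shares called in brackets below are edgeR's. Week 5 against week 3 had 0 members below an unadjusted edgeR p of 0.05 on soft and 0 on stiff (0% of all genes called in each). Of all genes, 9.37% and 6.33% were below it. Soft-primed cells moved to stiff, set against cells kept on stiff, had 2 members below that p, beside 14.1% of all genes (0.057% called). Stiff-primed cells moved to soft, set against cells kept on soft, had 1, beside 13.5% (0.178% called). The change of the surface effect from week 1 to week 3 and from week 1 to week 5 had 0 members each (0% of all genes called in both). Of all genes, 1.58% and 7% were below that p.

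Il6, which encodes interleukin 6, had its lowest group mean in 1w2, at 6.13, 5.83 and 4.65 CPM in replicates 1 to 3. After 3 weeks on soft the libraries held 14.5, 19.97 and 6.96 CPM, each above all 3 libraries of 1w2. How many of all genes separated in this way was not worked out. The means were 5.54 ± 0.78 and 13.8 ± 6.53 CPM (SD, n = 3), a log2 fold change of 1.31 (SE 0.45) that did not pass in edgeR's test (adjusted p = 0.0922).

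That Il6 value depended on the tool. DESeq2 gave an adjusted p of 0.0368. The range of edgeR's adjusted p over the single libraries left out was 0.0353 to 0.324.

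On stiff, Il6 was at 8.39, 8.03 and 3.65 CPM at 1 week and at 11.6, 4.33 and 4.08 CPM at 3 weeks, and these libraries overlapped, with means of 6.69 ± 2.64 and 6.66 ± 4.26 CPM (SD, n = 3). Stiff against soft at 3 weeks gave a log2 fold change of -1.03 (SE 0.45, edgeR adjusted p = 0.806), with the stiff library lower in all 3 replicate numbers, at log2 differences of -0.32 to -2.18. The change of the surface effect between weeks 1 and 3 was -1.31 (SE 0.63, edgeR adjusted p = 1.00), and between weeks 1 and 5 it was -1.44 (SE 0.71, adjusted p = 0.730).

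At 5 weeks Il6 separated the libraries by their first surface. Cells kept on soft held 17.95 and 17.92 CPM and soft-primed cells moved to stiff 19.5 and 19.4 CPM. Cells kept on stiff held 10.5 and 5.47 CPM, and stiff-primed cells moved to soft 10.8 and 6.26 CPM. The 4 soft-primed libraries did not overlap the 4 stiff-primed ones. The share of all genes without overlap was not worked out. In that comparison edgeR called 9.75% of all genes, and 25.8% had an unadjusted p below 0.05. Il6 ranked 1708 by edgeR's p among the 14034 genes. Kept and moved libraries of the same number and priming surface are not independent, so the gap rests on fewer than 4 against 4.

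The mean Il6 level was 18.7 ± 0.88 CPM after soft priming and 8.27 ± 2.80 CPM after stiff priming (SD, n = 4), 2.26-fold lower by the fit. The SD, the SE and the interval count kept and moved libraries of the same number and priming surface as separate, although these are not independent. With such pairs summed to 1 library, edgeR's adjusted p was 0.340. The log2 fold change of -1.18 (SE 0.38, 95% interval -2.00 to -0.36) missed the threshold in edgeR's test (adjusted p = 0.0659), while DESeq2 called it (adjusted p = 0.0230) and so did edgeR without 5w100 replicate 1 (adjusted p = 0.0419). For the current surface the log2 difference was 0.01 (SE 0.38, interval -0.80 to 0.82). That interval treats kept and moved libraries as separate and does not use their pairing by number. It leaves room for changes of that size in either direction.

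Il1b, which encodes interleukin 1β, was detected in all 6 libraries of 1 week, with 41, 11 and 12 counts in 1w2 and 48, 34 and 18 counts in 1w100. It had 0 counts in 13 of the 14 libraries of weeks 3 and 5, and 1 count in the other, a 3w100 library. The 1-week and later libraries did not overlap.

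Summed over libraries, Il1b on soft was at least 22.6-fold lower at week 3 than at week 1, taking 3 counts over the group as the floor for 0 of 3 libraries. On stiff the ratio of week 1 to week 3 was 98.1, with a 95% counting interval of 17.2 to 3912, from 100 counts against 1. At week 5 the soft-primed libraries were at least 30.0-fold and the stiff-primed ones at least 39.1-fold below the 1-week libraries of the same first surface.

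The fall of Il1b from week 1 to week 3 was called on soft (edgeR adjusted p = 0.00684) and on stiff (adjusted p = 0.00521), for a gene that is in the test only because of its 1-week counts. Without any filter on low counts the values were 0.00431 and 0.00324. The call on soft was lost in the fit of only the groups compared (adjusted p = 0.0540) and, with the replicate block added to that fit, reached 0.0845, while on stiff the alternatives ran from 0.00105 to 0.0293. Genes that mark macrophages or other blood cells were not looked at, since the identifiers were not paired with symbols, and their part in the loss of Il1b was not tested. 

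Ccl2, the monocyte-attracting chemokine, was highest at 1 week. On soft it stood at 42.3, 23.5 and 16.5 CPM at 1 week and at 7.99, 8.58 and 12.1 CPM at 3 weeks. On stiff it stood at 60.1, 40.1 and 18.9 CPM at 1 week and at 13.2, 12.6 and 7.32 CPM at 3 weeks. On both surfaces every 1-week library lay above every 3-week library. The share of all genes separated in this way was not worked out. In these comparisons 22.3% of all genes on soft and 22.7% on stiff had an unadjusted edgeR p below 0.05.

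The week-3 difference in Ccl2 was called on stiff (log2 fold change -1.84, SE 0.48, edgeR adjusted p = 0.0274), a 3.59-fold drop, and not on soft (-1.52, SE 0.48, adjusted p = 0.0669). The 2 surfaces were not shown to differ in this. DESeq2 also called it on soft (adjusted p = 0.0163), and on stiff the call was lost when 1w100 replicate 1 (adjusted p = 0.150), 1w100 replicate 2 (0.0582), 3w100 replicate 1 (0.0610), 3w100 replicate 2 (0.0796) or 3w100 replicate 3 (0.106) was left out.

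At 1 week Ccl2 was higher on stiff than on soft within each of the 3 replicate numbers, by 0.50, 0.77 and 0.19 on the log2 scale, although the groups overlapped. The log2 fold change was 0.53 (SE 0.46, edgeR adjusted p = 1). A fit of only these 6 libraries blocked on replicate number, chosen after the values were seen, called it (0.51, SE 0.09, adjusted p = 0.0459) along with 0.295% of all genes it tested, and the same block over all 20 libraries did not.

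At 5 weeks Ccl2 stood at 5.22 and 4.60 CPM in 5w2, 5.14 and 2.66 CPM in 3w2→2w100, 4.35 and 12.2 CPM in 5w100, and 4.87 and 10.4 CPM in 3w100→2w2. The 2 high values were replicate 2 of the stiff-primed groups, and replicate 1 of each stiff-primed group was within the range of the soft-primed libraries. The priming difference of 0.86 (SE 0.43, edgeR adjusted p = 0.227) did not pass. The 5-week against 3-week difference on soft was -0.96 (SE 0.56, adjusted p = 0.607).

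Cxcl1, the neutrophil-attracting chemokine, had a wide spread within groups. In 1w100 it was at 5.15, 3.68 and 0.55 CPM, from 113, 71 and 11 counts, and in 1w2 at 3.80, 3.43 and 0.81 CPM. Replicate 3 was lowest in both 1-week groups, where Ccl2 and Ptgs2 were also lowest in replicate 3. In the later groups its libraries ranged from 0.40 to 2.63 CPM, and no group stood apart from the next in the order of means.

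Week 3 against week 1 on stiff gave a log2 difference of -1.16 (SE 0.73, edgeR adjusted p = 0.371). With 7 to 113 counts a library, that difference was not detectable against the replicate spread.

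Ptgs2, which encodes cyclooxygenase-2, varied strongly between replicate numbers at 1 week, with 41.5, 119 and 23.1 CPM in 1w2 and 59.6, 154 and 27.0 CPM in 1w100. The stiff library was nonetheless above the soft one of the same number in all 3, by 0.52, 0.38 and 0.23 on the log2 scale. The fit without the block gave 0.39 (SE 0.63, edgeR adjusted p = 1), and the added fit of the 6 libraries with the block gave 0.39 (SE 0.06, adjusted p = 0.0352).

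At 3 weeks Ptgs2 was at 50.5, 67.7 and 85.5 CPM on soft and at 59.1, 133 and 102 CPM on stiff, with overlap between the groups. The stiff library was higher in all 3 numbers, although the numbers did not pair these groups. At 5 weeks it was at 43.9 and 85.2 CPM in 5w2 and 37.0 and 80.2 CPM in 3w2→2w100. The stiff-primed libraries held 84.9 and 187 CPM in 5w100 and 108 and 182 CPM in 3w100→2w2. Within each number the stiff-primed library was higher, while the lowest stiff-primed library lay just under the highest soft-primed one.

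The means were 61.6 ± 24.6 CPM after soft and 140 ± 51.7 CPM after stiff priming (SD, n = 4). As for Il6, the SD, the SE and the interval count same-numbered libraries of the same priming surface as separate. The log2 fold change was 1.19 (SE 0.55, 95% interval 0.01 to 2.37, edgeR adjusted p = 0.191). For the current surface it was -0.12 (SE 0.55, interval -1.28 to 1.05).

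**Figure D2:**
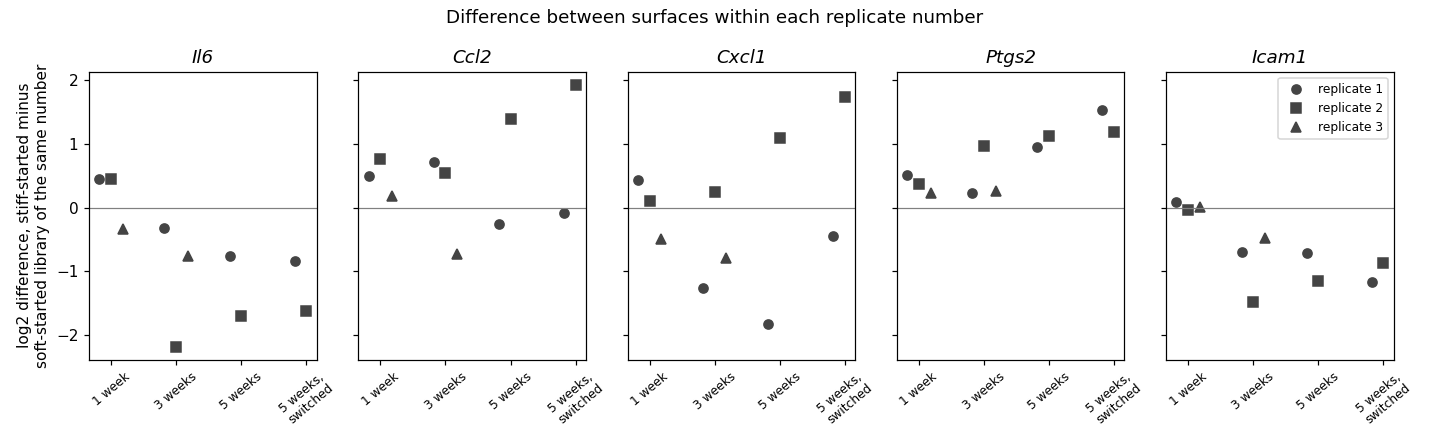
Log2 difference between the stiff-started and the soft-started library of the same replicate number (vertical axis), at 1, 3 and 5 weeks and for the switched groups at 5 weeks, for the 5 members present at every time. Ptgs2 is above 0 in all 10 pairs, and Icam1 and Il6 are below 0 in all 7 pairs of weeks 3 and 5. The numbers did not pair the 3-week groups, and the kept and switched pairs of the same number at 5 weeks are not independent.

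Icam1, which encodes the leukocyte ligand ICAM-1, was level at 1 week. It stood at 57.0, 63.7 and 74.9 CPM in 1w2 and at 61.0, 62.2 and 75.6 CPM in 1w100. The groups overlapped almost wholly, with means of 65.2 ± 9.06 and 66.3 ± 8.13 CPM (SD, n = 3).

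At 3 weeks Icam1 reached 159, 153 and 87.9 CPM on soft, each above every 1-week library, and 97.9, 55.0 and 63.2 CPM on stiff. How many of all genes separated from week 1 in this way was not worked out. The difference from week 1 on soft was 1.03 on the log2 scale (SE 0.36) and missed the threshold in edgeR's test (adjusted p = 0.0957), while DESeq2 called it (adjusted p = 0.0400). Stiff against soft at 3 weeks was -0.88 (SE 0.36, edgeR adjusted p = 0.792), with the stiff library lower in 3 of 3 numbers, although the numbers did not pair these groups. The change of the surface effect between weeks 1 and 3 was -0.91 (SE 0.50, adjusted p = 1.00).

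At 5 weeks Icam1 held 171 and 99.7 CPM in 5w2, 197 and 96.6 CPM in 3w2→2w100, 104 and 45.0 CPM in 5w100, and 88.1 and 52.7 CPM in 3w100→2w2. Replicate 1 was the higher in each of the 4 groups. The soft-primed libraries of replicate 2 overlapped with the stiff-primed libraries of replicate 1, so that the groups separated only within a number.

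The priming means of Icam1 were 141 ± 50.8 and 72.5 ± 28.2 CPM (SD, n = 4), 1.95-fold apart by the fit. As for Il6, the SD, the SE and the interval count same-numbered libraries of the same priming surface as separate. With such pairs summed, edgeR's adjusted p was 0.261. The log2 fold change of -0.96 (SE 0.31, 95% interval -1.62 to -0.30) missed the threshold in edgeR's test (adjusted p = 0.0632), while DESeq2 called it (adjusted p = 0.0192). It was also called by edgeR without 5w100 replicate 1 (adjusted p = 0.0168), 3w2→2w100 replicate 2 (0.0393) or 3w100→2w2 replicate 1 (0.0457). The current surface gave 0.10 (SE 0.31, interval -0.55 to 0.76).

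Vcam1, the second adhesion molecule, followed Il1b and not Icam1. It had 24, 10 and 21 counts in 1w2 and 37, 34 and 18 counts in 1w100, against 0, 1 and 2 counts in 3w2 and 2, 4 and 2 counts in 3w100. At 5 weeks no library had more than 4 counts. The 1-week libraries lay above all later ones.

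The ratio of week 1 to week 3 for Vcam1 was 19.4 on soft (95% counting interval 6.31 to 97.1) and 10.9 on stiff (5.30 to 26.1). Against the 5-week libraries of the same first surface it was 38.7 (10.2 to 327) on soft and 20.9 (8.62 to 65.9) on stiff. The fall to week 3 was called on soft (edgeR adjusted p = 0.00813) and on stiff (adjusted p = 0.00949), again for a gene tested only through its 1-week counts. Without any filter the values were 0.00831 and 0.0105, and with a minimum mean of 10 counts neither Vcam1 nor Il1b was tested. On soft the call was lost with only the groups compared and a replicate block (adjusted p = 0.0634). On stiff it was lost without 3w100 replicate 1 (adjusted p = 0.0518).

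**Figure D3:**
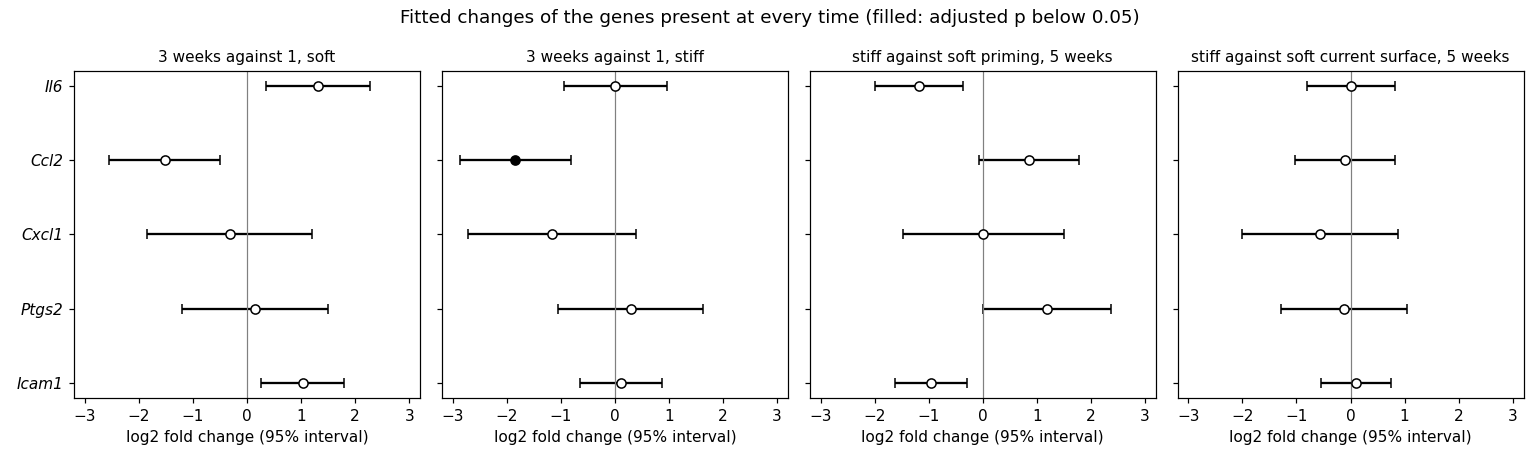
Log2 fold changes with 95% intervals (horizontal axis) for the 5 members present at every time, in 4 comparisons, with filled points for an adjusted p below 0.05 in edgeR's test. Ccl2 on stiff is the single filled point, and all 5 intervals for the current surface span 0. The intervals for the priming and the current surface count same-numbered libraries of the same priming surface as separate.

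The switch experiment asks whether the level at week 5 goes with the surface of the first 3 weeks or with that of the last 2. Moved cells were first set against cells kept on the surface to which they had been moved. Soft-primed cells on stiff differed from 5w100 by 1.28 in Il6 (SE 0.55, edgeR adjusted p = 0.306), 0.98 in Icam1 (SE 0.44, adjusted p = 0.332) and -1.21 in Ptgs2 (SE 0.78, adjusted p = 0.523). Stiff-primed cells on soft differed from 5w2 by -1.07 in Il6 (SE 0.54, adjusted p = 0.408), -0.94 in Icam1 (SE 0.44, adjusted p = 0.366) and 1.17 in Ptgs2 (SE 0.78, adjusted p = 0.550).

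None of these differences passed. The 5-week groups kept on one surface gave log2 changes, stiff against soft, of -1.16 for Il6 (SE 0.54, edgeR adjusted p = 0.321), -0.86 for Icam1 (SE 0.44, adjusted p = 0.369), 1.07 for Ptgs2 (SE 0.78, adjusted p = 0.544) and 0.75 for Ccl2 (SE 0.61, adjusted p = 0.583). With single libraries left out, these ran from -1.71 to -0.76 for Il6, -1.59 to -0.37 for Icam1 and 0.40 to 1.63 for Ptgs2, and Ccl2 changed sign. These comparisons share libraries with each other and with the priming comparison, and their values are not independent.

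Against cells of the same number kept on the priming surface, moved cells gave the following log2 differences for replicates 1 and 2. Il6 differed by 0.12 and 0.11 on the log2 scale after the move to stiff and by 0.04 and 0.19 after the move to soft. Icam1 differed by 0.21 and -0.05 after the move to stiff and by -0.24 and 0.23 after the move to soft, and Ptgs2 by -0.25 and -0.09, and by 0.34 and -0.03.

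**Figure D4:**
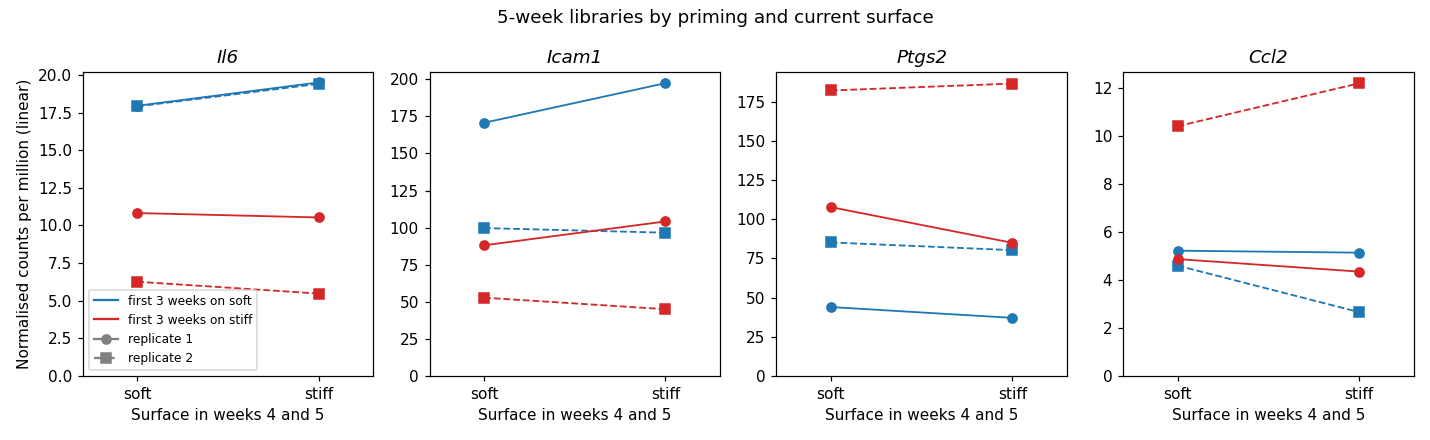
Normalised CPM (linear axis from 0) of Il6, Icam1, Ptgs2 and Ccl2 at 5 weeks by the surface of weeks 4 and 5, with lines joining libraries of the same priming surface and replicate number. The lines for Il6 stay near 18 to 20 CPM after soft priming and near 5 to 11 CPM after stiff priming on either current surface.

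Whether the priming difference passed a test depended on the tool, as given above, and on how libraries of the same number were treated. Their deviations from the group means, over all genes tested, correlated at 0.76 between 5w2 and 3w2→2w100 and at 0.80 between 5w100 and 3w100→2w2, and at 0.17 to 0.25 between libraries of different priming. Blocking on replicate number in edgeR gave calls for 3 of 7 members, Il6 (-1.22, SE 0.26, adjusted p = 0.00806), Icam1 (-0.97, SE 0.24, adjusted p = 0.0175) and Ptgs2 (1.21, SE 0.36, adjusted p = 0.0356). The same fit called 16.4% of all genes, against 9.75% without the block.

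That block still counts both libraries of a number and priming surface as separate. In a fit added after the values were seen, the counts of each such pair were summed to 1 library, leaving 2 against 2. No member was then called in edgeR's test, with adjusted p = 0.340 for Il6, 0.261 for Icam1 and 0.518 for Ptgs2, and with the replicate block added 0.105, 0.151 and 0.249. The log2 fold changes barely moved, at -1.17, -0.95 and 1.19 without the block.

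Levels of the members were also set against each other across libraries, as a description only. Libraries of the same group, or of the same replicate number at weeks 1 and 5, are not independent points. Nor are libraries of the same number and first surface across weeks 3 and 5. Over the 14 libraries of weeks 3 and 5, log2 CPM of Il6 and Icam1 correlated with Pearson's r = 0.85, Ptgs2 and Icam1 with r = -0.95, and Il6 and Ptgs2 with r = -0.74. After subtracting group means in all 20 libraries the values were 0.56, -0.65 and -0.07. Icam1 and Ptgs2 ran opposite also between replicates of one group, while the value for Il6 and Ptgs2 was near 0.

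Ccl2 and Cxcl1 correlated at r = 0.65 over the 14 libraries and at 0.77 within groups. Over all 20 libraries Il1b and Vcam1 correlated at r = 0.94, Ccl2 and Vcam1 at 0.89 and Ccl2 and Il1b at 0.85. Over the 14 libraries of weeks 3 and 5 the same pairs had r = 0.20, 0.65 and 0.01, from at most 4 counts of Vcam1 and 1 of Il1b, and within groups 0.32, 0.56 and 0.50.

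**Figure D5:**
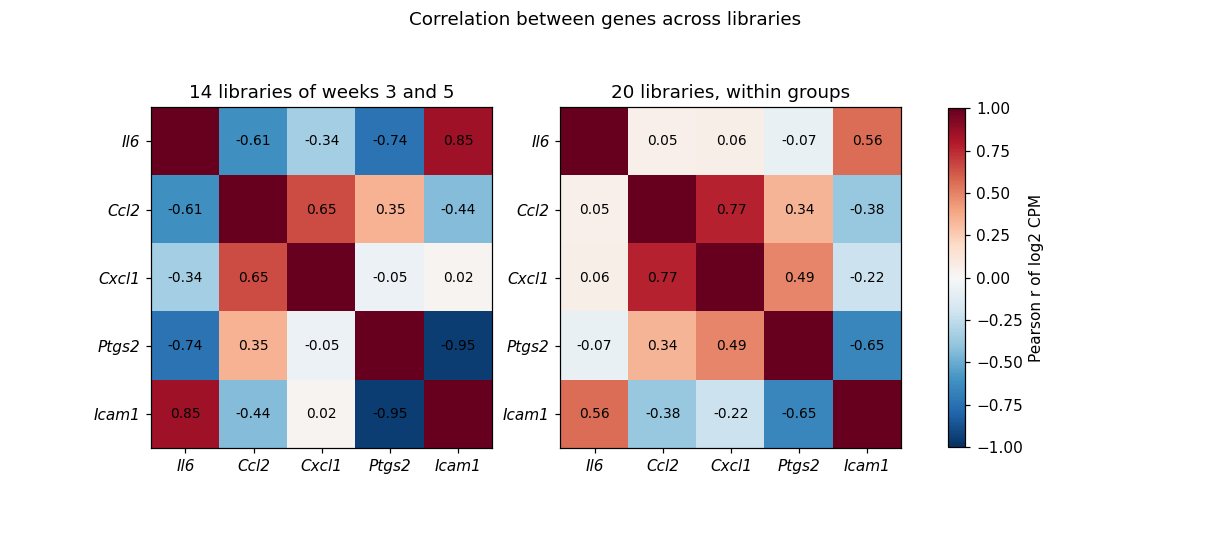
Pearson's r of log2 CPM between 5 members, over the 14 libraries of weeks 3 and 5 (left) and over 20 libraries after subtracting group means (right), with colour from -1 to 1. Icam1 and Ptgs2 are the most negative pair on both sides, at -0.95 and -0.65.

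Among 10123 genes with a mean of at least 5 CPM, the gene with the level pattern most like Icam1 over the 20 libraries was ENSRNOG00000025624 (r = 0.98). The closest to Il6 was ENSRNOG00000063590 (r = 0.94), to Ptgs2 ENSRNOG00000063146 (r = 0.91) and to Ccl2 ENSRNOG00000000239 (r = 0.96). These genes are unnamed in the count table, and members of the set were left out of the search.

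In the order of group means, the libraries of neighbouring groups overlapped for all 7 neighbour pairs of Cxcl1, Ptgs2 and Icam1. For Il6 the single gap lay between 3w2→2w100 and 5w2, its 2 highest groups. For Ccl2, Il1b and Vcam1 the single gap lay between 1w2 and the next lower group, 3w100, with overlap between all later neighbours.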

How the data were processed

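The deposited table holds raw counts per gene for the 20 libraries, which the authors made, per the labels and the study's methods, from poly-A, strand-marked, paired reads with TrimGalore!, HISAT2 (mRatBN7.2) and FeatureCounts on Galaxy. Tool versions and the strand setting were not stated in those sources. No value was scaled before deposit, and 0 rows lacked a gene. Counts were filtered with filterByExpr (minimum count 10), scaled by TMM and tested with edgeR 4.0.16 (R 4.3.3) in one model of 8 groups over all 20 libraries; log2 CPM used a prior count of 2. DESeq2 1.42.0 was an alternative, with RLE scaling, other filters, fewer groups, the replicate block, for the current surface a block for each pair of 5-week libraries of 1 priming surface and number, and single libraries left out. The scripts were tested on simulated data. Figures used matplotlib.

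The members, lists and tests were proposed with earlier results of these data known. The rule for named genes was all 7 members and, per member, the 3 genes of highest correlation, of which 1 is printed for 4 members. Other pathway lists and cell type markers could not be applied, because the identifiers were not paired with symbols in the tables used here.

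Replicates are cells of different rats per the study's methods, but nothing says that a number marks 1 rat across groups. Same-numbered deviations from group means correlated at 0.63, 0.65 and 0.78 between the 1-week groups and at 0.13, 0.35 and 0.11 between 1w100 and 3w100, which met the limit of 0.1 for every pair. They did not meet it at 3 weeks (0.39, 0.08 and 0.46) or between 1w2 and 3w2 (0.05, 0.37 and 0.11). Between 3w2 and 5w2 (0.45 and 0.42) and between 3w100 and 5w100 (0.45 and 0.39) they met the limit. At 5 weeks every same-numbered pair met it (0.17 to 0.80), although with 2 libraries a group both numbers give the same value. Across weeks and surfaces, 3w2 did not meet it with 5w100 (0.11 and -0.21) or 3w100→2w2 (0.10 and -0.20). There 3w100 met it with 5w2 (0.14 and 0.17). The replicate block over all 20 libraries treats a number as the same block in every group. Counting intervals (95%) and the floor of 3 counts cover counting error only.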

Additional observations from a re-analysis of the deposited data

How the results depend on the processing

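Members called between weeks 3 and 1 on soft numbered 2 in the reported fit, 5 with DESeq2, 4 with the replicate block (Il6, adjusted p = 0.0202, and Icam1, 0.0346, joined, although the numbers did not pair these groups), 1 with only the groups compared, 0 with a mean of at least 10 counts (Il1b and Vcam1 were then not tested), 0 with the replicate block on only the groups compared (added after seeing the data), and 2 to 3 with single libraries left out. On stiff they numbered 3, 1 with a mean of at least 10 counts, and 1 to 3 with libraries left out (1 without 3w100 replicate 1). For the priming surface they numbered 0, 2 with DESeq2, 3 with the replicate block over all libraries or over only the groups compared, and 0 to 2 with libraries left out (2 without 5w100 replicate 1, 1 without 3w2→2w100 replicate 2 or 3w100→2w2 replicate 1). At 1 week, 2 were called instead of 0 with the replicate block on only the groups compared, a fit that called 39 of 13207 genes. The cause was not tested, beyond the genes left untested and the libraries removed. The replicate block changed the number of called members in no other comparison. Log2 fold changes that changed sign did so only with single libraries left out: Ptgs2 at 1 week (-0.49 to 1.31), Ccl2 stiff against soft at 5 weeks (-0.17 to 1.31), and for the current surface Il6 (-0.26 to 0.24), Ccl2 (-0.57 to 0.22), Ptgs2 (-0.45 to 0.16) and Icam1 (-0.26 to 0.35). Where 1 library remained in a group, its spread was taken from the other groups. Over all genes, the calls ranged over the alternatives from 11 to 2297 for the priming surface (1369 in the reported fit), 0 to 39 for the 1-week surfaces (0), 0 to 599 for the 5-week surfaces (37), and 485 to 1802 (1127) and 1014 to 1872 (1180) for week 3 against 1 on soft and stiff. Il1b and Vcam1 rest on at most 48 counts a library.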
